A study of Mus musculus with 8 samples.

Results

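The 35 genes described here belong to the unfolded protein response and the integrated stress response. They were chosen by name, from what the genes are known to do, but with earlier results of these data known. All 35 were found among the 55487 gene identifiers in the tables. They fall into 14 endoplasmic reticulum (ER) chaperones and foldases, 7 genes of ER-associated degradation, 7 stress sensors and transcription factors, 5 targets of the factors ATF4 and CHOP, and 2 genes of the translation factors eIF2 and eIF2B. Transcript levels were measured by RNA sequencing in the epididymal white fat pad of 8 male C57BL/6 mice that a high-fat diet had made obese. The 4 AKO mice carried AP2-cre and Slc16a1 flox/flox and are labelled Slc16a1 -/-. The 4 WT mice carried Slc16a1 flox/flox and no Cre, so both groups share the floxed alleles and the diet, and the presence of Cre and the intended deletion cannot be told apart. The AP2 promoter is that of Fabp4, a fatty acid binding protein of fat cells that macrophages also make. Slc16a1 encodes MCT1, which moves lactate and related acids across the cell membrane. The sources used here do not give the age of the mice. The comparison asks which transcripts differ in obese fat when MCT1 is meant to be lost.

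Proteins that enter the ER are folded there with the help of chaperones. When unfolded protein builds up, the sensors IRE1, ATF6 and PERK are activated. IRE1 splices the Xbp1 transcript and ATF6 is cut to a transcription factor, and both routes raise chaperone and degradation genes. PERK, like the amino acid sensor GCN2, phosphorylates eIF2, which blocks its exchange factor eIF2B, lowers general translation and lets ATF4 be made. ATF4 and CHOP then turn on genes of amino acid supply, redox balance and feedback. Fat cells secrete adipokines and matrix, and in obesity the unfolded protein response has been linked to insulin resistance.

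Most of the chaperone genes with a promoter entry share a sequence feature. The ER stress response element (ERSE), CCAAT and CCACG with 9 bases of any kind between them, is known as a binding site of ATF6 together with NF-Y. Promoters of 31 members were found by symbol in RefSeq (build GRCm38.p6), each with 250 bases before and 50 after the annotated start. On either strand, the element stood in the promoters of 9 of these 31 members, and in those of 37 of all 27025 genes with a promoter, 0.137%. The 9 are 7 of 12 chaperones and 2 of 6 degradation genes, and none of the 13 other members with a promoter held it. Hsp90b1 had 2 copies, of which the copy nearer the start is given. A shorter form, ERSE-II (ATTGG and CCACG with 1 base of any kind between them), stood in Dnajb11 and Herpud1 and in 0.0444% of all genes. These elements are shown because they set most of the chaperones beside each other by sequence. The members were chosen as genes of the response that uses these elements, so the share among them is not an independent result. A match is a description, not a measured site. Capitals mark the element, with 5 bases on each side.
Hspa5 ERSE, chr2:34772020-34772048, plus strand: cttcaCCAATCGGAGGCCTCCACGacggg
Hsp90b1 ERSE, chr10:86705528-86705556, plus strand: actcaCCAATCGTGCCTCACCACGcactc
Calr ERSE, chr8:84847070-84847098, plus strand: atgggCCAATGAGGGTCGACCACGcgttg
Canx ERSE, chr11:50325795-50325823, minus strand: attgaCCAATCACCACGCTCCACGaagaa
Pdia6 ERSE, chr12:17266486-17266514, plus strand: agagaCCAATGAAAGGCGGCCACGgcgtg
Dnajc3 ERSE, chr14:118937822-118937850, plus strand: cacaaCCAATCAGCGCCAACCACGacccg
Creld2 ERSE, chr15:88819515-88819543, minus strand: gtggaCCAATTGAGGCTCGCCACGagaag
Syvn1 ERSE, chr19:6046527-6046555, plus strand: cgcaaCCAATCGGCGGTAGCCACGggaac
Derl3 ERSE, chr10:75893237-75893265, minus strand: gctagCCAATGGGGAAGTCCCACGgtaga
Dnajb11 ERSE-II, chr16:22857847-22857867, plus strand: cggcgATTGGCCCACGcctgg
Herpud1 ERSE-II, chr8:94386372-94386392, plus strand: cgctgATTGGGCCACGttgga

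Some of the ATF4 and CHOP targets carry another element. The C/EBP-ATF response element (CARE), searched as TGATGNAA on either strand, is bound by ATF4 with a C/EBP partner. It stood in 3 of 5 ATF4 and CHOP targets and in Herpud1, and in 4.51% of all genes with a promoter. The 5 genes were grouped as known targets of ATF4 and CHOP, so the share among them is not an independent result either. The matches are shown as a description, with the element again in capitals. None of the 12 chaperone promoters held one, and beside 4.51% of all genes that does not set the chaperones apart. In Herpud1 the CARE and ERSE-II matches do not overlap.
Chac1 CARE, chr2:119351044-119351061, minus strand: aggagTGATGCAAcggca
Trib3 CARE, chr2:152344034-152344051, plus strand: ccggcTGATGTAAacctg
Asns CARE, chr6:7693220-7693237, minus strand: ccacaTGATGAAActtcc
Herpud1 CARE, chr8:94386312-94386329, minus strand: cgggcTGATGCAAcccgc

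Levels are in TPM, a length-corrected share of the library's transcripts, as deposited. TPM does not carry the number of reads, and the depth of the libraries is unknown. AKO and WT stand for the libraries so labelled, because total Slc16a1 was not lower in AKO: it had 22.4, 21.5, 27.1 and 25.0 TPM in AKO mice 3, 8, 9 and 11, against 23.4, 28.5, 15.7 and 17.6 TPM in WT mice 2, 3, 4 and 5. The labels do not say which stretch of the gene is deleted, so this total does not check them. All 10 adipocyte markers were detected in every library. Markers of the epididymal epithelium summed to at most 1.17 TPM in AKO and 7.57 TPM in WT. In WT mice 2, 3, 4 and 5 the sums were 0.12, 5.09, 7.57 and 0.06 TPM. WT mouse 4 stood apart with the lowest macrophage marker sum. Mitochondrially encoded genes held 6.69% to 8.40% of TPM in AKO and 7.54% to 8.99% in WT. Whole fat pads were measured, so fewer cells of a type and less RNA per cell cannot be told apart.

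None of the 35 members passed the threshold between AKO and WT, an FDR of 0.05 by limma on log2(TPM + 1) over the 14172 genes tested. All 35 had passed the filter on low values. Over all genes tested 0.0282% were called, 0.0212% higher and 0.00706% lower in AKO. At an unadjusted p below 0.05 there were 2 members, Chac1 with higher and Eif2b1 with lower values in AKO, which is 5.71% of the members, against 4.75% of all genes tested (2.58% higher and 2.17% lower). Groups did not overlap for 1 member, Eif2b1, against 2.44% of all genes tested (1.11% with AKO above and 1.33% with AKO below). Each log2 change is the AKO mean minus the WT mean of log2(TPM + 1), a scale that understates the change of low genes. They were positive for 21 members and negative for 14, with a median of 0.053 beside 0.015 over all genes tested. The 95% interval of the change included 0 for 33 members. For Xbp1 it ran from -0.15 to 0.15, for Hspa5 from -0.20 to 0.57.

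**Figure D1:**
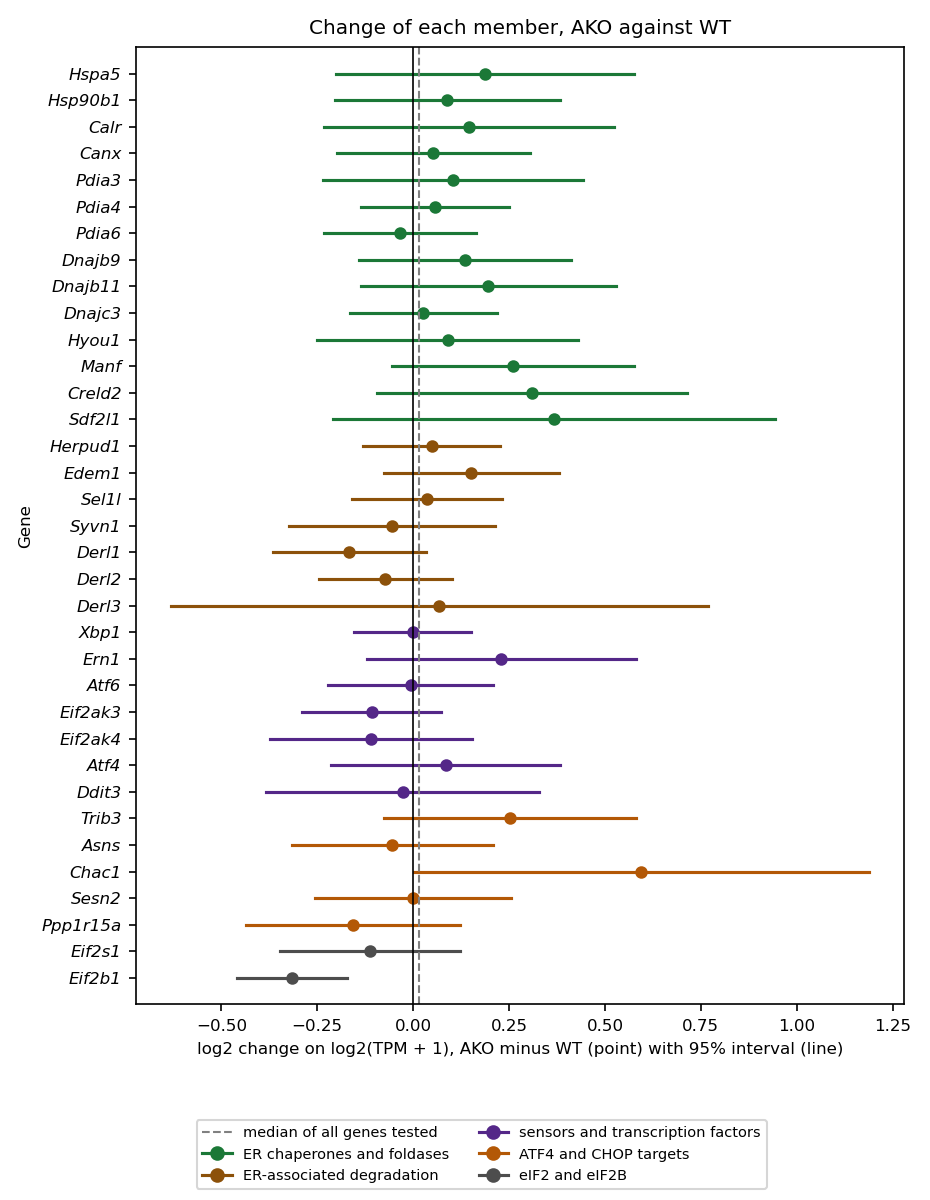
Log2 change of each of the 35 members on the log2(TPM + 1) scale, AKO minus WT (points), with 95% intervals from limma (lines), coloured by role; the dashed line is the median of all genes tested. The intervals of 33 members include 0, that of Chac1 starts just above 0 and that of Eif2b1 lies below 0, and no member has an FDR below 0.05.

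No ER chaperone passed the test between AKO and WT, and the levels differed widely between mice of a group. Hspa5 encodes BiP, the main ER chaperone of the HSP70 family and the usual readout of the unfolded protein response. It had 404, 343, 473 and 425 TPM in AKO mice 3, 8, 9 and 11, against 312, 482, 289 and 381 TPM in WT mice 2, 3, 4 and 5. WT mouse 3 was the highest of all 8 and WT mouse 4 the lowest, and the AKO mice lay between them, so the groups overlapped. The means were 411 ± 54.1 TPM in AKO and 366 ± 86.4 TPM in WT (SD, n = 4 each), a log2 change of 0.19 (limma FDR = 0.850). The change was 0.33 without WT mouse 3 and 0.084 without WT mouse 4. Calr, a lectin chaperone that holds glycoproteins, had 545, 455, 562 and 482 TPM in the AKO mice, against 429, 629.9, 358 and 464 TPM in the WT mice. WT mouse 3 was again the highest and WT mouse 4 the lowest, and its change was 0.15 (limma FDR = 0.880), 0.30 without WT mouse 3 and 0.025 without WT mouse 4.

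Of the 14 chaperones and foldases, 13 had positive log2 changes and 1, the disulphide isomerase gene Pdia6, a negative one, with a median of 0.12. These genes vary together, so their shared sign is not 14 separate observations. The 4 with the smallest p were Manf, Creld2, Sdf2l1 and Dnajb11. Manf, a small secreted protein that is released from stressed ER, had 144, 139.6, 167 and 150.2 TPM in the AKO mice, against 123, 161, 99.2 and 124 TPM in the WT mice, and its change was 0.26 (95% interval -0.056 to 0.58, limma FDR = 0.831). The AKO mice were all above WT mice 2, 4 and 5, and 3 of them were below WT mouse 3. Creld2, an ER protein with disulphide isomerase activity, had 39.1, 31.7, 47.6 and 42.5 TPM in the AKO mice, against 30.4, 42.6, 24.4 and 32.6 TPM in the WT mice (change 0.31, limma FDR = 0.831). Sdf2l1, which works in a complex with the BiP partner ERdj3, had 70.3, 50.4, 76.4 and 66.8 TPM in the AKO mice, against 43.3, 77.0, 32.5 and 59.0 TPM in the WT mice (change 0.37, limma FDR = 0.831). It had the widest range of the chaperones, 2.37-fold between WT mice 3 and 4. Dnajb11, which encodes ERdj3, had 76.3, 63.4, 76.8 and 73.7 TPM in the AKO mice, against 54.7, 81.8, 51.9 and 68.0 TPM in the WT mice (change 0.20, limma FDR = 0.831). In each of these 4 genes the 2 groups overlapped. The change of Manf was 0.38 without WT mouse 3 and 0.15 without WT mouse 4. That of Creld2 was 0.45 without WT mouse 3 and 0.19 without WT mouse 4. That of Sdf2l1 was 0.57 without WT mouse 3 and 0.16 without WT mouse 4, and that of Dnajb11 0.32 without WT mouse 3 and 0.10 without WT mouse 4. Each of the 4 was positive without either mouse, and none passed the test.

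The other chaperones covered a wide range of levels. Hsp90b1, the ER member of the HSP90 family, averaged 305 ± 17.6 TPM in AKO and 290.4 ± 56.4 TPM in WT, and Canx, the membrane-bound partner of Calr, averaged 177 ± 11.2 TPM in AKO and 171 ± 25.7 TPM in WT (SD, n = 4 each). Among the disulphide isomerases Pdia3 averaged 252 ± 28.9 TPM in AKO and 237 ± 49.2 TPM in WT, Pdia6 178 ± 8.79 TPM in AKO and 183 ± 18.7 TPM in WT and Pdia4 78.3 ± 3.97 TPM in AKO and 75.4 ± 7.40 TPM in WT. The BiP cochaperone genes were lower: Dnajc3 averaged 48.2 ± 1.34 TPM in AKO and 47.5 ± 4.74 TPM in WT, Dnajb9 44.1 ± 3.76 TPM in AKO and 40.4 ± 6.94 TPM in WT, and Hyou1, a nucleotide exchange factor of BiP, 38.0 ± 4.08 TPM in AKO and 36.0 ± 7.71 TPM in WT. In 7 of these 8 genes, not in Pdia3, AKO mouse 8 was the lowest AKO mouse and WT mouse 3 the highest WT mouse, and the SD was larger in WT than in AKO in all 8. Their log2 changes ran from -0.034 to 0.14, each with a limma FDR of at least 0.849.

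The group's median depended on single WT mice. Leaving out WT mouse 3 gave a median log2 change of 0.24, and leaving out WT mouse 4 gave 0.025. Without WT mouse 3, 8 of 14 chaperones (57.1%) had an unadjusted p below 0.05 with higher values in AKO, against 9.15% of all genes tested. In either direction it was 13.7% of all genes tested. The lowest limma FDR among the 8 was 0.332. WT mouse 3 was the highest of all mice in 12 of the 14, so leaving it out lowered their WT means. The 14 also vary together, so the 8 are not separate observations. Without WT mouse 4, each of the 14 had a limma FDR of 0.997.

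**Figure D2:**
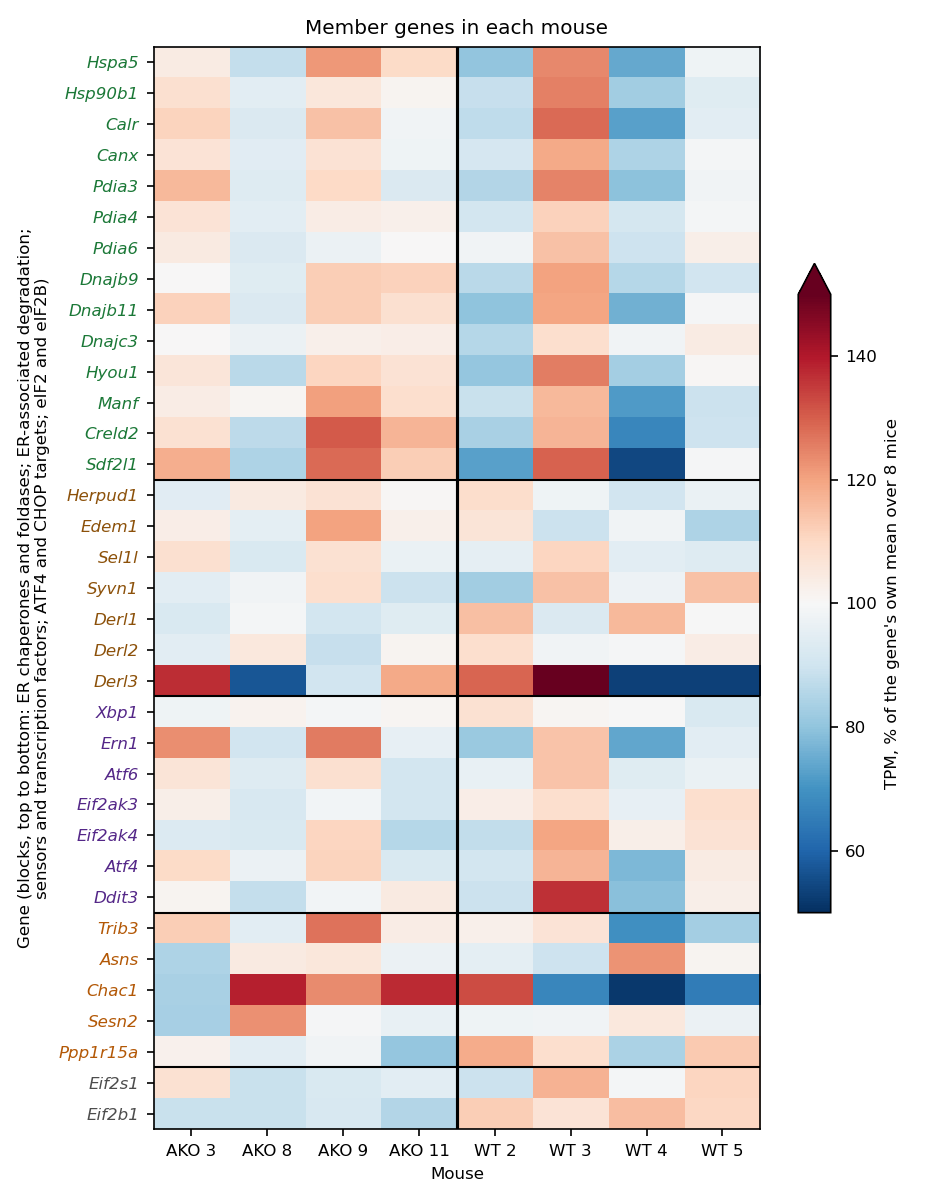
TPM of each member in each mouse as a percentage of the gene's own mean over the 8 mice, AKO left and WT right, with genes in blocks by role. WT 3 is the darkest red column of the chaperone block and WT 4 the darkest blue one, whereas Eif2b1 in the bottom row is below its mean in every AKO mouse and above it in every WT mouse.

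The same mice were high or low for nearly the whole chaperone block. WT mouse 3 was the highest of the 8 mice in 12 of 14 chaperones and AKO mouse 9 in the other two. WT mouse 4 was the lowest in 11 and WT mouse 2 in 3. Summed over the 14 genes, TPM was 2471, 2116, 2567 and 2336 in AKO mice 3, 8, 9 and 11, against 1979, 2799.9, 1789 and 2208 in WT mice 2, 3, 4 and 5. The sums averaged 2372 ± 195 TPM in AKO and 2194 ± 439 TPM in WT (SD, n = 4 each).

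Correlation with Hspa5 across the 8 mice, on log2(TPM + 1), was high for most chaperones. Pearson's r with Hspa5 was positive for all 13 other chaperones, from 0.71 for Pdia6 to 0.97 for Dnajb11, with a median of 0.926. It was at least 0.9 for 10 of the 13, against 1.76% of all genes tested, whose median was 0.126. Dnajb11 ranked 6, Sdf2l1 12, Hyou1 23 and Creld2 27 among the 14171 other genes by r. At the other end of the chaperones Pdia3 ranked 545, Dnajc3 2293 and Pdia6 2511. Over the 34 relations computed, Pearson's r passed an adjusted p of 0.05 for 11 of the 13 chaperones in the exact permutation test over all pairings of the 8 mice. For Sdf2l1, r was 0.97 (exact permutation p = 7.44e-05, adjusted 0.000843) and Spearman's rho 0.976 (exact permutation p = 0.000397, adjusted 0.00225). For Dnajb11, r was 0.97 (exact permutation p = 9.92e-05, adjusted 0.000843) and rho 0.976 (exact permutation p = 0.000397, adjusted 0.00225). The values of a mouse share its library and its TPM total.

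The relation among chaperones was also seen with the group means removed, and for most of them r was lower without the extreme mice. On deviations from the group means, r of the 13 chaperones with Hspa5 ran from 0.734 to 0.971. These deviations pool both groups, and r was not computed in AKO or in WT alone. The SD of Hspa5 was 54.1 TPM in AKO and 86.4 TPM in WT. Over the 7 mice without WT mouse 3, r ran from 0.58 to 0.97 with a median of 0.91, and without WT mouse 4 from 0.55 to 0.97 with a median of 0.89. Leaving out WT mice 2 and 4, the mice farthest from the median of Hspa5, gave r from 0.578 for Pdia6 to 0.954 for Sdf2l1 over 6 mice. Then 8 of the 13 had an exact permutation p below 0.05 before adjustment, Sdf2l1 and Hyou1 among them, and Pdia3, Pdia6, Dnajc3, Manf and Hsp90b1 did not.

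**Figure D3:**
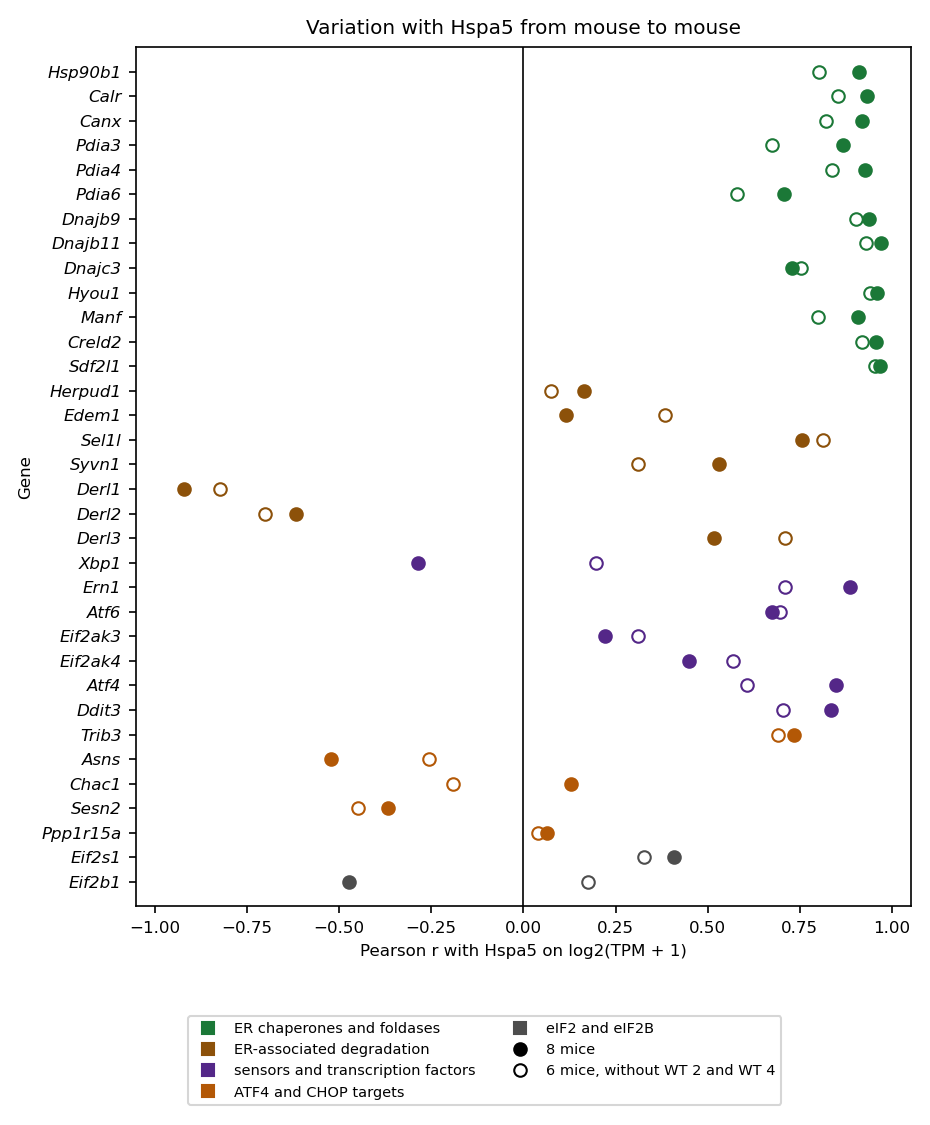
Pearson r of each other member with Hspa5 on log2(TPM + 1), over 8 mice (filled) and over 6 mice without WT 2 and WT 4 (open), coloured by role. The 13 chaperones lie between 0.71 and 0.97 over 8 mice, whereas the degradation genes spread from -0.92 for Derl1 to 0.76 for Sel1l.

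Marker sums of macrophages and fibroblasts were high and low in some of the same mice as the chaperones. Summed TPM of 10 macrophage markers was 5615, 4530.0, 6439 and 3658 in AKO mice 3, 8, 9 and 11, against 3633, 5323, 2257 and 3486 in WT mice 2, 3, 4 and 5. Summed TPM of 8 fibroblast and adipose progenitor markers was 2691, 2122, 2482 and 1828 in AKO mice 3, 8, 9 and 11, against 1553, 2541, 1470.0 and 1787 in WT mice 2, 3, 4 and 5. In the macrophage and fibroblast sums, as in the chaperone sum, WT mouse 4 was the lowest. AKO mice 3 and 9 and WT mouse 3 were the 3 highest in each. The sum of 6 mast cell markers had the same lowest mouse and the same 3 highest mice. Single markers did not all follow these sums. Each macrophage marker was lowest in WT mouse 4, as were the fibroblast markers Pdgfra, Col1a1, Col3a1 and Lum. Dcn was lowest in WT mouse 5, Dpp4 in AKO mouse 11, and Pi16 and Cd34 in WT mouse 3. The mast cell marker Kit was lowest in WT mouse 3 and highest in WT mouse 4, and the other mast cell markers were lowest in WT mouse 4. For 10 adipocyte markers summed TPM was 29969, 41769, 30498 and 38416 in AKO mice 3, 8, 9 and 11, against 43590.3, 28562, 43047 and 33296 in WT mice 2, 3, 4 and 5, with WT mouse 3 the lowest. Fabp4 made up most of this sum, with means of 22236.8 TPM in AKO and 21629.5 TPM in WT. Fabp4, Adipoq, Cidec and Slc2a4 were lowest in WT mouse 3, and Plin1, Lipe and Cfd in AKO mouse 9. Pnpla2 and Pparg were lowest in AKO mouse 3, and Lep in WT mouse 4. Of the macrophage markers 10 of 10 had positive log2 changes, of the fibroblast markers 8 of 8, and of the adipocyte markers 1 of 10. Of 9 markers of lipid-associated macrophages 8 were positive, with a median of 1.20, which was 1.62 without WT mouse 3 and 0.61 without WT mouse 4. No marker in any of these lists passed the test. Summed TPM of 9 B and plasma cell markers, whose cells hold much ER, was 102, 128, 123 and 75.8 in AKO mice 3, 8, 9 and 11, against 62.1, 93.8, 66.0 and 48.1 in WT mice 2, 3, 4 and 5. The order of this sum differed from that of the chaperones: AKO mouse 8, the lowest AKO mouse in the chaperone sum, was the highest, and WT mouse 5 was the lowest. Its 2 largest markers differed: Sdc1 was highest in WT mouse 3 and lowest in WT mouse 4, and Jchain highest in AKO mouse 8 and lowest in WT mouse 5. The macrophage and fibroblast sums also differed in part from the chaperone sum, with AKO mouse 11 the lowest AKO mouse. All 7 of the B and plasma cell markers that were tested had positive log2 changes, 3 with an unadjusted limma p below 0.05, and none passed. At that p, 3 of 9 lipid-associated macrophage, 1 of 8 fibroblast and 1 of 5 tested mast cell markers were also higher in AKO. Of 10 adipocyte markers 1 was lower, and of the macrophage markers none stood at that p. Over all genes tested 2.58% were higher and 2.17% lower at that p. The part of cell type makeup in the chaperone levels was not tested.

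**Figure D4:**
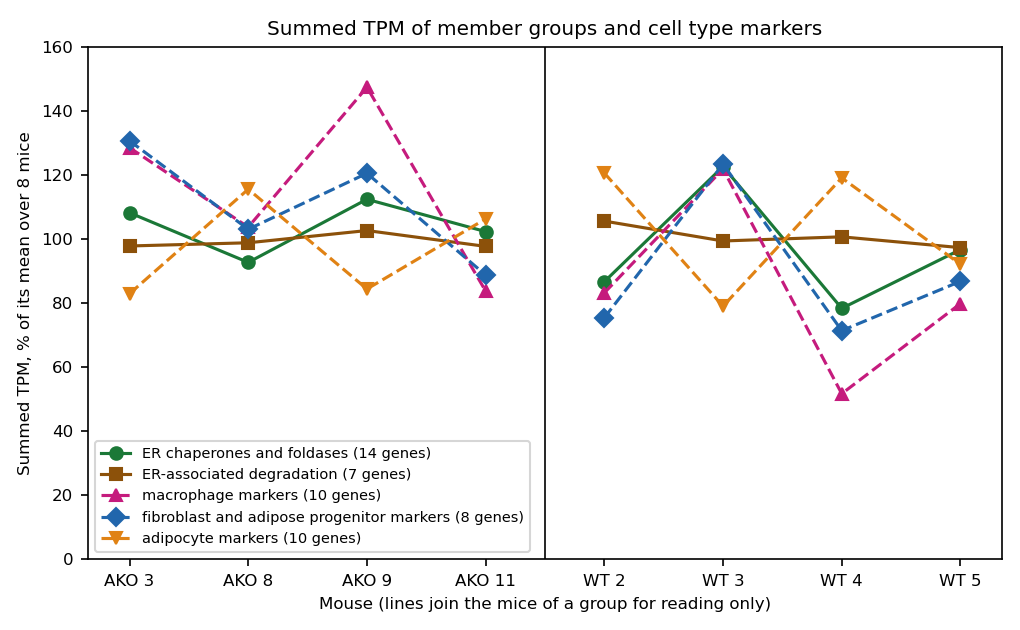
Summed TPM of the chaperone and degradation members and of 3 cell type marker lists in each mouse, as a percentage of the list's mean over 8 mice; lines join the mice of a group for reading only. The chaperone line is high in AKO 9 and WT 3 and low in WT 4, as are the macrophage and fibroblast lines, the adipocyte line is high in AKO 8, WT 2 and WT 4, and the degradation line stays near 100%.

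Genes of ER-associated degradation, which pull misfolded proteins back to the cytosol for the proteasome, gave no call between the groups. None of the 7 passed, 4 log2 changes were positive and 3 negative, and the median was 0.037. Derl1, a derlin of the channel through which misfolded proteins leave the ER, had 88.3, 95.02, 87.0 and 89.9 TPM in the AKO mice, against 110.3, 89.0, 111 and 95.7 TPM in the WT mice. WT mice 2 and 4 were the highest, AKO mouse 8 and WT mouse 5 came next, and the other 4 mice lay within a narrow band, so the groups overlapped (log2 change -0.17, 95% interval -0.37 to 0.034, limma FDR = 0.831). Its order of mice was largely opposite to that of Hspa5. Its r with Hspa5 was -0.92 (exact permutation p = 0.000868, adjusted 0.00438) and its rho -0.857 (exact permutation p = 0.0107, adjusted 0.0280). An r of -0.9 or lower was reached by 1.91% of all genes tested. Without WT mice 2 and 4 it was -0.821 over 6 mice (exact permutation p = 0.0569), so part of the relation rests on those 2 mice.

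Edem1, which marks glycoproteins for degradation, had 58.5, 53.8, 67.9 and 58.0 TPM in the AKO mice, against 60.2, 50.5, 55.5 and 47.8 TPM in the WT mice (log2 change 0.15, limma FDR = 0.831). AKO mouse 9 was the highest and WT mice 3 and 5 the lowest, so WT mouse 3, the highest in 12 of 14 chaperones, was near the bottom here. Derl2 had 42.5, 47.4, 39.8 and 45.6 TPM in the AKO mice, against 48.7, 44.2, 44.7 and 46.6 TPM in the WT mice (log2 change -0.073, limma FDR = 0.869). Herpud1, which gathers the degradation complex and carries both an ERSE-II and a CARE match above, had 64.5, 71.5, 73.5 and 68.9 TPM in the AKO mice, against 74.4, 66.9, 61.9 and 66.0 TPM in the WT mice (log2 change 0.049, limma FDR = 0.913), and its r with Hspa5 was 0.16. The ligase gene Syvn1 and its partner Sel1l form the HRD1 complex. Syvn1 averaged 32.3 ± 2.63 TPM in AKO and 33.8 ± 5.08 TPM in WT and Sel1l 60.3 ± 4.71 TPM in AKO and 58.8 ± 4.81 TPM in WT (SD, n = 4 each), with r of 0.53 and 0.76. Derl3, a derlin typical of secretory cells, was the lowest member, at 2.60 ± 0.896 TPM in AKO and 2.55 ± 1.41 TPM in WT (SD, n = 4 each), and ranged 3.03-fold between mice. Holders of an ERSE differed in this: r with Hspa5 was 0.96 for Creld2 and 0.52 for Derl3, the highest and the lowest of the 8 holders other than Hspa5.

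None of the 7 sensors and transcription factors passed, 2 log2 changes were positive and 5 negative, with a median of -0.0064. Xbp1, whose transcript IRE1 splices, had 135, 140.3, 137 and 139 TPM in the AKO mice, against 148, 139, 138 and 127 TPM in the WT mice. It was the steadiest member, with 1.17-fold between the highest mouse, WT 2, and the lowest, WT 5 (log2 change -0.00078, 95% interval -0.15 to 0.15, limma FDR = 0.999). Its r with Hspa5 was -0.28 (exact permutation p = 0.516, adjusted 0.605). The tables hold 6 rows for Xbp1, 1 per transcript, without transcript names, so the spliced form could not be read from them. The first row held 87.3% of its TPM, with 119.6 ± 2.99 TPM in AKO and 121 ± 7.60 TPM in WT (SD, n = 4 each).

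Ern1, which encodes IRE1, was low, with 9.56, 7.02, 9.79 and 7.43 TPM in the AKO mice, against 6.33, 8.87, 5.74 and 7.35 TPM in the WT mice (log2 change 0.23, limma FDR = 0.831). AKO mice 9 and 3 and WT mouse 3 were the highest, and its r with Hspa5 was 0.89 (exact permutation p = 0.00558, adjusted 0.0146). Atf4 had 129.7, 115, 132 and 109 TPM in the AKO mice, against 108, 139, 92.0 and 124 TPM in the WT mice, again with WT mouse 3 the highest and WT mouse 4 the lowest (log2 change 0.085, limma FDR = 0.909). Ddit3, which encodes CHOP, had 58.3, 50.8, 56.6 and 60.0 TPM in the AKO mice, against 51.3, 78.4, 45.4 and 59.2 TPM in the WT mice (log2 change -0.027, limma FDR = 0.975). WT mouse 3 exceeded all the others, and the range of the AKO mice lay inside that of WT. Atf4 and Ddit3 had r of 0.85 (exact permutation p = 0.00781, adjusted 0.0177) and 0.83 (exact permutation p = 0.00553, adjusted 0.0146) with Hspa5. Without WT mice 2 and 4, r was 0.709 for Ern1, 0.605 for Atf4 and 0.705 for Ddit3, and none of the 3 had an exact permutation p below 0.05 over the 6 mice.

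The eIF2 kinases were also without a call. Eif2ak3, which encodes PERK, had 14.6, 13.0, 13.9 and 12.8 TPM in the AKO mice, against 14.6, 15.3, 13.6 and 15.3 TPM in the WT mice (log2 change -0.11, limma FDR = 0.831). Eif2ak4, which encodes GCN2, had 6.28, 6.23, 7.47 and 5.78 TPM in the AKO mice, against 5.90, 8.07, 6.95 and 7.24 TPM in the WT mice (log2 change -0.11, limma FDR = 0.869). In both the AKO mean was the lower, and the groups overlapped. The sensor gene Atf6 averaged 18.03 ± 1.58 TPM in AKO and 18.1 ± 1.69 TPM in WT (SD, n = 4 each).

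None of the 5 targets of ATF4 and CHOP passed, 2 log2 changes were positive and 3 negative, and the median was -0.00038. Chac1 encodes an enzyme that breaks down glutathione and is a late target of ATF4 and CHOP. It had 7.07, 11.7, 10.4 and 11.6 TPM in AKO mice 3, 8, 9 and 11, against 11.2, 5.70, 4.37 and 5.48 TPM in WT mice 2, 3, 4 and 5. AKO mice 8, 9 and 11 and WT mouse 2 were high, and AKO mouse 3 lay between them and WT mice 3, 4 and 5. WT mouse 2 exceeded AKO mice 3 and 9, so the groups overlapped. The change was 0.60 (95% interval 0.0013 to 1.19, unadjusted limma p = 0.0496, limma FDR = 0.831; exact permutation p = 0.0857, two-sided, where these 8 mice allow at least 0.0286). Leaving out WT mouse 2 gave 0.84 (limma FDR = 0.800), the highest change with 1 mouse left out. Leaving out WT mouse 4 gave 0.45 (limma FDR = 0.997), the lowest.

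The r of Chac1 with Hspa5 was 0.13 (exact permutation p = 0.752, adjusted 0.799). WT mouse 3, the highest in Ddit3 and in 12 of 14 chaperones, was low in Chac1. Trib3, a pseudokinase that restrains ATF4, had 8.90, 7.51, 10.1 and 8.20 TPM in the AKO mice, against 8.12, 8.47, 5.50 and 6.57 TPM in the WT mice (log2 change 0.25, 95% interval -0.076 to 0.58, limma FDR = 0.831). AKO mouse 9 was the highest and WT mouse 4 the lowest. Ppp1r15a, which encodes GADD34, the stress-induced subunit that returns eIF2 to its unphosphorylated form, had 13.9, 12.9, 13.4 and 10.99 TPM in the AKO mice, against 16.2, 14.8, 11.5 and 15.4 TPM in the WT mice (log2 change -0.16, limma FDR = 0.831). WT mice 2, 5 and 3 were above every AKO mouse, and WT mouse 4 was below all but AKO mouse 11. Asns, the asparagine synthetase gene, had 21.4, 26.5, 26.8 and 24.6 TPM in the AKO mice, against 24.1, 22.7, 31.0 and 25.7 TPM in the WT mice (log2 change -0.054, limma FDR = 0.931), with WT mouse 4, the lowest in most chaperones, on top. Sesn2, a sestrin that restrains mTORC1, averaged 20.6 ± 3.37 TPM in AKO and 20.4 ± 0.770 TPM in WT (SD, n = 4 each), with AKO mice 8 and 3 at both ends of the range.

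**Figure D5:**
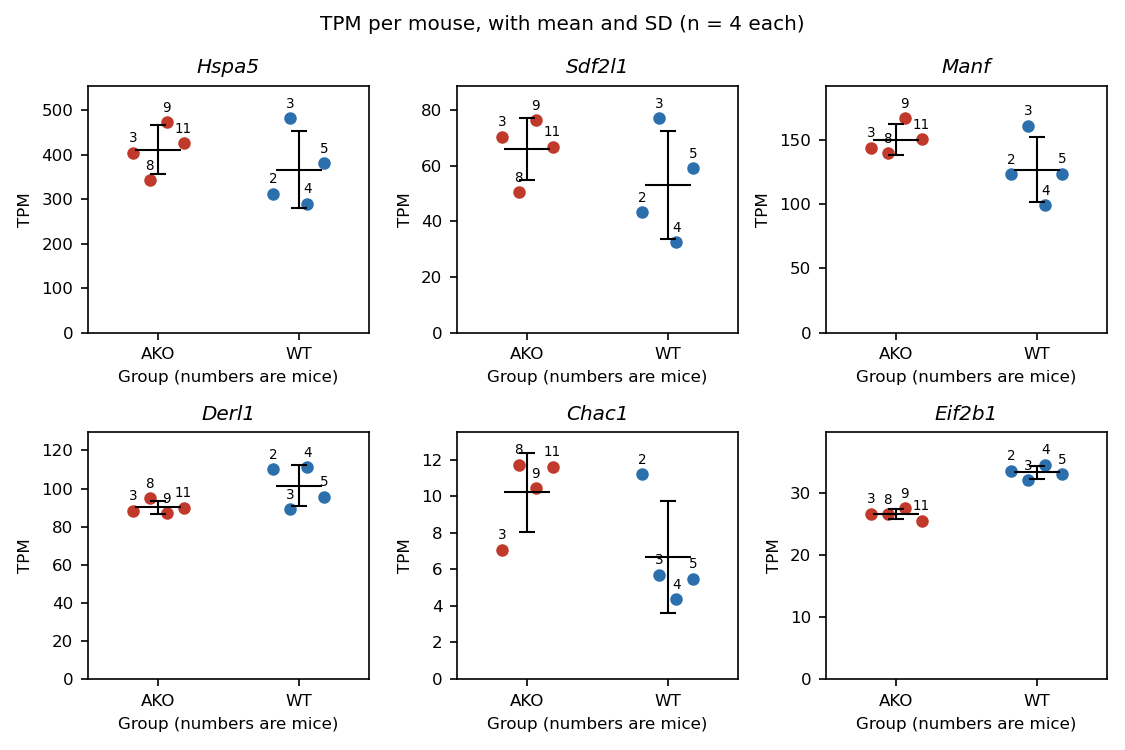
TPM of 6 members in each mouse (points, numbered as in the labels), with mean and SD as black bars, AKO left and WT right, on axes that start at 0. The groups overlap for Hspa5, Sdf2l1, Manf, Derl1 and Chac1 and do not for Eif2b1, with 25.6 to 27.6 TPM in AKO and 32.1 to 34.6 TPM in WT.

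Eif2b1 was the member with the smallest p. It encodes the alpha subunit of eIF2B, through which phosphorylated eIF2 inhibits the complex. It had 26.7, 26.6, 27.6 and 25.6 TPM in AKO mice 3, 8, 9 and 11, against 33.7, 32.1, 34.6 and 33.1 TPM in WT mice 2, 3, 4 and 5. The groups did not overlap and each was narrow, with 26.6 ± 0.815 TPM in AKO and 33.4 ± 1.06 TPM in WT (SD, n = 4 each), so that AKO held 79.8% of the WT mean. The change was -0.32 (SE 0.063, 95% interval -0.46 to -0.17, unadjusted limma p = 0.000827, limma FDR = 0.533; exact permutation p = 0.0286, the smallest these mice allow). Among all genes tested, 1.33% likewise had all AKO mice below all WT mice.

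The separation of Eif2b1 rested in part on its minor transcript rows. Its first row held 92.8% of its TPM and had 24.9, 26.5, 27.6 and 25.6 TPM in the AKO mice, against 30.1, 30.0, 27.0 and 31.1 TPM in the WT mice. On that row alone AKO mouse 9 was above WT mouse 4, so the groups overlapped, and the change was -0.17 (limma FDR = 0.838 over 33323 rows). The fourth row was listed at 0 in the 4 AKO mice and in WT mouse 5 and had 3.27, 1.57 and 4.95 TPM in WT mice 2, 3 and 4. Whether a listed 0 is an absent transcript or a value the quantifier could not assign is not given by the tables.

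Eif2s1, which encodes eIF2 alpha, the subunit that the stress kinases phosphorylate, had 38.1, 31.5, 32.7 and 33.6 TPM in the AKO mice, against 31.6, 41.7, 35.2 and 39.2 TPM in the WT mice (log2 change -0.11, limma FDR = 0.850). AKO mouse 8 and WT mouse 2 were the lowest and the groups overlapped. Of the 14 other ISR kinase, eIF2 and eIF2B genes none passed, 6 log2 changes were positive and 8 negative, and the median was -0.015. Eif2b3, the gamma subunit gene of eIF2B, averaged 24.1 ± 1.35 TPM in AKO and 28.6 ± 5.11 TPM in WT, while Eif2b2, the beta subunit gene, averaged 59.8 ± 6.51 TPM in AKO and 56.0 ± 3.95 TPM in WT (SD, n = 4 each; limma FDR = 0.831 and 0.872). The AKO mean was the lower for Eif2b3 and the higher for Eif2b2.

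Other genes of the same pathways were looked at in 11 lists of 166 genes, of which 162 were tested and none passed. The medians of the lists that handle the secretory load were near that of all genes. Translocation into the ER had a median of -0.027 (7 positive of 18), other ER folding genes 0.0035 (11 of 22), other degradation genes -0.022 (9 of 21) and signalling partners of the sensors 0.0048 (7 of 14). ER to Golgi transport had -0.051 (3 of 17). There Sec31a, of the outer COPII coat, had 98.7, 98.1, 100.1 and 94.97 TPM in the AKO mice, against 101, 120.4, 104 and 122 TPM in the WT mice with no overlap (log2 change -0.19, limma FDR = 0.831). The signal peptidase gene Spcs2 averaged 111 ± 4.30 TPM in AKO and 96.4 ± 15.8 TPM in WT, and Ero1lb, an oxidase that feeds the disulphide isomerases, averaged 12.6 ± 2.70 TPM in AKO and 9.90 ± 2.55 TPM in WT (SD, n = 4 each). Wfs1, an ER membrane protein, had 63.8, 47.2, 88.0 and 43.4 TPM in the AKO mice, against 39.5, 79.0, 16.7 and 35.3 TPM in the WT mice (log2 change 0.64, limma FDR = 0.831), and its highest and lowest WT mice were mice 3 and 4, as for Hspa5. The log2 change of Wfs1 was 0.9998 without WT mouse 3 (limma FDR = 0.332) and 0.28 without WT mouse 4 (limma FDR = 0.997).

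Median log2 changes in the wider ATF4 programme differed in sign between its lists. Amino acid synthesis genes had negative log2 changes in 9 of 11, with a median of -0.25, and amino acid transporters positive ones in 5 of 7, with a median of 0.11. Over all genes tested 46.2% were negative. Summed TPM had the lower mean in AKO in both lists. It was 529 ± 83.2 TPM in AKO and 634 ± 150 TPM in WT for synthesis (SD, n = 4 each). For all 9 transporters it was 1005 ± 90.7 TPM in AKO and 1114 ± 200 TPM in WT (SD, n = 4 each). Psat1, of serine synthesis, had 108, 106, 99.2 and 119 TPM in the AKO mice, against 127, 122, 133 and 134 TPM in the WT mice with no overlap (log2 change -0.25, unadjusted limma p = 0.00986, limma FDR = 0.831, exact permutation p = 0.0286). Pycr1, of proline synthesis, averaged 5.08 ± 0.722 TPM in AKO and 6.25 ± 0.848 TPM in WT, and the transporter gene Slc7a5 averaged 6.46 ± 1.46 TPM in AKO and 5.29 ± 1.48 TPM in WT (SD, n = 4 each). The cytosolic tRNA synthetases had a median of -0.0056, with 6 of 12 positive. Among the stress regulators, 6 of 15 were positive and the median was -0.071. Atf5, a relative of Atf4 whose translation also rises when eIF2 is phosphorylated, had 107, 101, 98.0 and 119 TPM in the AKO mice, against 135, 130.4, 143 and 139 TPM in the WT mice. Each AKO mouse was below each WT mouse (log2 change -0.37, 95% interval -0.55 to -0.19, unadjusted limma p = 0.00137, limma FDR = 0.656, exact permutation p = 0.0286). Nupr1, a stress-induced nuclear protein, had 164, 157, 147 and 153 TPM in the AKO mice, against 170.1, 173, 170.3 and 176 TPM in the WT mice, also without overlap (log2 change -0.15, limma FDR = 0.831).

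Mitochondrial chaperones and proteases, which answer to ATF5 and related factors, had negative log2 changes in 9 of 11, with a median of -0.16. Hspd1, which encodes the chaperonin HSP60, had 156, 169, 164 and 189 TPM in the AKO mice, against 196, 195, 207 and 197 TPM in the WT mice (log2 change -0.23, unadjusted limma p = 0.0140, limma FDR = 0.831, exact permutation p = 0.0286), and its partner Hspe1 averaged 186 ± 10.3 TPM in AKO and 209.7 ± 12.9 TPM in WT (SD, n = 4 each). Over the 162 wider genes, groups did not overlap for 5, named above as Sec31a, Psat1, Atf5, Nupr1 and Hspd1, all with AKO below WT. That is 3.09% of them, against 1.33% of all genes tested with AKO below WT and 2.44% in either direction. Adipocyte markers were negative in 9 of 10, with a median of -0.17, and their part in these lower values was not tested.

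Single transcript rows gave no call either. The 35 members had 170 rows, of which 76 were tested and none passed, against 0.0210% of all 33323 rows. At an unadjusted p below 0.05 there was 1, the second row of Manf, with 24.6, 21.6, 22.9 and 23.4 TPM in the AKO mice, against 16.3, 22.6, 13.4 and 17.9 TPM in the WT mice (log2 change 0.40, limma FDR = 0.838), against 5.56% of all rows. Hspa5 had 6 rows, and rows 1 and 2 held 32.7% and 65.8% of its TPM. Both were highest in WT mouse 3 and lowest in WT mouse 4.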

How the data were processed

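RNA was sequenced from epididymal fat of 4 AKO and 4 WT mice. Libraries were made with a TruSeq kit from total RNA, per the labels' protocols. The submitters' processing notes list HISAT2, DESeq2 and mm9, and state no role for them. The sources used here do not name the quantifier or the annotation. The deposited values are TPM, with 152298 rows per library, and sum to 1000000 within rounding. Of these rows 401 name no gene (0.605% to 0.943% of TPM) and stayed out of all sums and tests. Rows of a gene were summed. Names come from GENCODE M21, and 55141 of 55487 identifiers had a symbol. Of 2 identifiers named Ddit3, the lower-numbered was used, and the other is listed at 0 in every library.

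limma 3.58.1 (R 4.3.3) compared log2(TPM + 1) between the groups with its trend option, over genes that reached 1 TPM in 4 or more samples, adjusted by Benjamini-Hochberg, and tested on simulated data. Single values were compared by two-sided exact permutation over the 70 arrangements of 4 and 4 mice. Each library is labelled as another mouse, and the p-values measure the spread between mice. The groups share the number 3 only, on different mice.

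Every member may be named. Values per mouse are given for Hspa5, Xbp1, Atf4, Ddit3 and up to 4 members per role with the smallest p; Calr was added after its values were seen. Up to 3 genes with the smallest p per wider list may be named. Promoters were searched in the RefSeq table. Also searched were the core of the unfolded protein response element, TGACGTG, and the CCAAT box alone. The first stood in 3.23% of the members with a promoter and in 2.22% of all genes. The CCAAT box stood in 74.2% of these members and in 41.1% of all genes. The members and lists were chosen with earlier results of these data known. The values of r, Wfs1 and the marker medians without WT mouse 3 or 4 were chosen after seeing the data. So was the count of chaperones with an unadjusted p below 0.05 without WT mouse 3. Alternatives are given in the closing section.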

Additional observations from a re-analysis of the deposited data

Results flagged for a closer look

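In 4 of 80 groups of 4 mice looked at, for the TPM of each member and the summed TPM of each role, the highest mouse lay far from the other three relative to the group's range. Chance alone flags about 1 in 20 groups. Dnajb9 was 50.7 TPM in WT mouse 3, against 36.1 to 38.1 in the other WT mice. Sel1l was 66.0 TPM in WT mouse 3, against 55.8 to 56.9. Atf6 was 20.6 TPM in WT mouse 3, against 17.0 to 17.4. Sesn2 was 21.6 TPM in WT mouse 4, against 19.9 to 20.1. The 3 genes flagged for WT mouse 3 belong to 3 roles.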

How the results depend on the processing

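The count of members past the threshold was 0 under each of 14 alternatives, for gene totals and for transcript rows under the 10 run on rows. The number of all genes called was between 1 (without AKO mouse 3) and 5 (without WT mouse 4) when 1 mouse was left out, against 4 with all mice, and 2 without AKO mouse 11 or WT mouse 2. Leaving out 1 mouse moved the median log2 change of the chaperones between 0.025 and 0.24, that of degradation genes between -0.075 and 0.047, that of sensors between -0.038 and 0.054, that of ATF4 and CHOP targets between -0.086 and 0.081 and that of eIF2 and eIF2B between -0.25 and -0.19. Taking the row with the highest mean gave -0.12 for eIF2 and eIF2B, against -0.21 for sums, and -0.17 (limma FDR = 0.835) for Eif2b1, whose minor rows are then left out. Under the other alternatives Eif2b1 lay between -0.33 and -0.30, and its lowest limma FDR was 0.323.

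The log2 change of 23 members kept its sign under all 14 alternatives, and 12 members changed sign, 29 times in all, each with a change of at most 0.11 in size over all mice. With the row of highest mean Syvn1 was 0.022 and Eif2ak4 0.054, and with sample quality weights Xbp1 was 0.010 and Atf6 0.034. Leaving out 1 mouse gave ranges across 0 for Canx (-0.017 to 0.15), Pdia6 (-0.091 to 0.026), Dnajc3 (-0.040 to 0.071), Syvn1 (-0.15 to 0.0021), Derl3 (-0.097 to 0.28), Xbp1 (-0.039 to 0.034), Atf6 (-0.043 to 0.054), Atf4 (-0.018 to 0.18), Ddit3 (-0.14 to 0.12), Asns (-0.11 to 0.033), Sesn2 (-0.097 to 0.081). Without a change of sign, leaving out 1 mouse moved the change by over 1.5 times for Hspa5 (0.084 to 0.33), Hsp90b1 (0.015 to 0.21), Calr (0.025 to 0.30), Pdia3 (0.016 to 0.23), Pdia4 (0.022 to 0.12), Dnajb9 (0.089 to 0.25), Dnajb11 (0.10 to 0.32), Hyou1 (0.0084 to 0.22), Manf (0.15 to 0.38), Creld2 (0.19 to 0.45), Sdf2l1 (0.16 to 0.57), Herpud1 (0.010 to 0.097), Edem1 (0.088 to 0.21), Sel1l (0.0044 to 0.092), Derl2 (-0.11 to -0.028), Ern1 (0.15 to 0.33), Eif2ak4 (-0.18 to -0.050), Trib3 (0.15 to 0.33), Ppp1r15a (-0.26 to -0.091), Eif2s1 (-0.18 to -0.054). The cause was not tested. No paired analysis was possible because the groups share only 1 mouse number, on different animals. TPM holds no depth, so what depth limits is unknown.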
